A study of Homo sapiens with 96 samples.

Results

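The Polycomb repressive complex 2 (PRC2) core was followed through every cell line and treatment of the study as the RNA of its 6 subunit genes, EZH2, EZH1, EED, SUZ12, RBBP4 and RBBP7. The genes were chosen by name. They are 6 of the 60605 gene IDs in each of 4 count tables, and 6 of the 50037 gene symbols in the fifth. Each of the 6 was found once in every table and passed the filter on low counts in all 5.

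RNA was sequenced from K562, an established leukaemia line of erythroid character, derived from chronic myeloid disease, in 96 libraries that form 32 groups of 3. The BCOR and KDM2B tables are time courses of cells named K562BCO or K562_KDM2B in the labels (BCOR and KDM2B cells here), in tables named for BCOR-mAID and KDM2B-mAID, mAID being the degron tag, untreated or after 2, 8, 24 or 72 h with 5PhIAA, the ligand of the auxin-inducible degron, which makes a tagged protein unstable. Untreated cells had no vehicle, and the 4 time points of a course share the same 3 untreated libraries. The construct table is named for KDM2B mutants and holds 5 lines that received either DMSO or the ligand, and their names are EV, LF, SF, dCxxC and dLRRS. The inhibitor table, also named for KDM2B-mAID, holds cells labelled K562 with DMSO, the ligand, GSK343 (an inhibitor of EZH2) or ligand and GSK343 together. The J2_7 table repeats these 4 treatments on cells labelled KDM2B-mAID (mAID below) and on cells labelled KDM2B-mAID_J2_7 (J2_7 below), and both names carry the degron tag on KDM2B. The table's own name speaks of wild-type cells and of cells that lack JARID2 together with AEBP2, but which label belongs to which is not spelled out. Doses, the length of treatment outside the time courses, the number of clones per line and what the 5 line names stand for are not stated in the labels. Nothing states that libraries of a group came from separate cultures, so p-values measure the spread between these libraries, which may be technical.

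PRC2 places methyl groups on lysine K27 of histone H3, a mark of silent genes. EZH2 and EZH1 are its alternative catalytic subunits, EED reads the mark and stimulates the enzyme, and SUZ12 is the scaffold that accessory subunits such as JARID2 and AEBP2 dock on. RBBP4 and RBBP7 are closely related histone binders that also serve in the NuRD and Sin3 deacetylase complexes and in chromatin assembly. PRC1.1 is a separate Polycomb complex that ubiquitinates histone H2A; its subunit KDM2B binds CpG dinucleotides without DNA methylation, and BCOR is another of its subunits.

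The promoters of the 3 members with the largest fold changes or with opposite moves between lines are printed here, because CpG content is what KDM2B reads. Each is 300 bases of RefSeq sequence on GRCh38.p14, from 250 bases before the start to 50 after it, on the strand of the gene, with every CpG in capitals.
EED promoter, chr11:86244503-86244802, plus strand: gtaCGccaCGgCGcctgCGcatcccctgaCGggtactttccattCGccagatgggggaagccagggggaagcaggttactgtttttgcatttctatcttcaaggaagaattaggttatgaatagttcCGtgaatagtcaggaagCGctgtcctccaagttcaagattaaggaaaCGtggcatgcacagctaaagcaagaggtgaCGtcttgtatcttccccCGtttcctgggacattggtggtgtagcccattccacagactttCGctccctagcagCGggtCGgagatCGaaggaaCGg
EZH1 promoter, chr17:42744991-42745290, minus strand: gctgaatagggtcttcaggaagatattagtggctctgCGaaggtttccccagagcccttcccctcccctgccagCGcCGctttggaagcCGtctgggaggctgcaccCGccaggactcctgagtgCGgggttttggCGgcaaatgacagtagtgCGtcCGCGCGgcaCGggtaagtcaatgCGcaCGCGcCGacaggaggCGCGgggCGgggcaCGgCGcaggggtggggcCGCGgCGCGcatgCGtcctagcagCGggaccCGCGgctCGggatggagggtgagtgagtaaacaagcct
EZH2 promoter, chr7:148884242-148884541, minus strand: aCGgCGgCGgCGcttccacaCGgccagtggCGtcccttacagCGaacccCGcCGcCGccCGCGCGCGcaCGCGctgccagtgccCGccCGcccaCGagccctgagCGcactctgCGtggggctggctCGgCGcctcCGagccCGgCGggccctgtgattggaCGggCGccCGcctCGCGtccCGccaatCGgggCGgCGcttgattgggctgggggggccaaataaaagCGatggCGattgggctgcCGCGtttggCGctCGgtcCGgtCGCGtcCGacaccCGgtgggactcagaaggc
EED had 16 CpGs in this window, EZH1 30 and EZH2 46, against a median of 13 over 24885 RefSeq promoters of that length. The other members had 40 (SUZ12), 42 (RBBP4) and 44 (RBBP7), so that EED had the fewest of the 6. Of all promoters 53.2% held fewer CpGs than that of EED, and 97.3% held fewer than that of EZH2. The motif TTTNNCGC, a loose form of the site of the E2F cell-cycle factors, was searched on both strands and lay in 6.96% of all promoters. It was found once each in the EZH2, EZH1, SUZ12 and RBBP7 windows and not in those of EED and RBBP4. No match says only that these letters are absent from the window.

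In GENCODE release 44 on hg38, EZH2 spans chr7:148807257-148884321 and EZH1 chr17:42700275-42745049, both on the minus strand. EED lies at chr11:86201212-86278813 on the plus strand, and its RefSeq start is inside that span. SUZ12 is at chr17:31937007-32001038 and RBBP4 at chr1:32651142-32686211, both on the plus strand, and RBBP7 at chrX:16839283-16870362 on the minus strand. Whether counting used the strand is not given in the sources used here, so that reads in exons shared with a gene on the other strand cannot be assigned. RBBP4 shares 2160 bases of exon with SYNC, whose level was 0.246% to 1.02% of that of RBBP4. RBBP7 shares 179 bases with TXLNG, whose level was 31.4% to 46.4% of that of RBBP7, and EED shares 221 bases with the lncRNA ENSG00000288809, which was not analysed here. The pseudogene SUZ12P1 was at 6.77% to 10.1% of the SUZ12 level, and how its reads were split from those of SUZ12 is not known.

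Depth differed between libraries. Totals spanned 5806624 to 18519442 counts for BCOR, 10429112 to 19910440 for KDM2B, 2346542 to 22611557 for the constructs, 4268383 to 24545679 for the inhibitor experiment and 782663 to 12740071 for the J2_7 experiment. The lowest totals of the last 3 belong to EV ligand library 1, GSK343 library 1 and J2_7 GSK343 library 1. Of 10 erythroid and K562 markers, 9 exceeded 1 CPM (read counts scaled to the size of the library) in each of the 4 ID tables and 10 in the J2_7 table, and of 10 markers of other cell types 1 to 3 did. KDM2B RNA was 82.1 CPM in EV cells with DMSO and, with the same vehicle, 3622 CPM in dCxxC, 2929 in dLRRS, 2386 in LF and 898 CPM in SF cells. AEBP2 RNA was 1.68 CPM in J2_7 cells and 17.1 CPM in mAID cells, both with DMSO, while JARID2 RNA was 90.1 and 115 CPM.

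Levels were compared between members as CPM per kilobase of exon in the 4 ID tables, since the J2_7 table may hold counts from the ends of transcripts only. RBBP4 had the highest level in control cells, with a mean of 86.2 (untreated, BCOR table), 76.1 (untreated, KDM2B table), 65.7 (EV with DMSO) and 78.2 CPM per kilobase (DMSO, inhibitor table). RBBP7 followed with 40.8, 36.5, 35.6 and 40.5 CPM per kilobase in the same order. SUZ12 came next with 28.4, 29.5, 22.3 and 27.7, and EZH2 with 23.3, 23, 22.4 and 25.3 CPM per kilobase. The mean of SUZ12 was above that of EZH2 except in EV cells, where the order turned; their libraries overlapped in the construct and inhibitor tables and not in the time courses. EED stood at 15.5, 14.4, 10.9 and 14.2 CPM per kilobase and EZH1 was the lowest of the 6 at 3.14, 4.65, 6.67 and 3.27. All other neighbours in this order had ranges that did not overlap in any of the 4 groups. Exon length is the union of all annotated exons (10774 bases for EZH2, 6988 for EZH1, 6995 for EED, 6551 for SUZ12, 9470 for RBBP4 and 7340 for RBBP7), which understates genes with rare long exons.

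**Figure D1:**
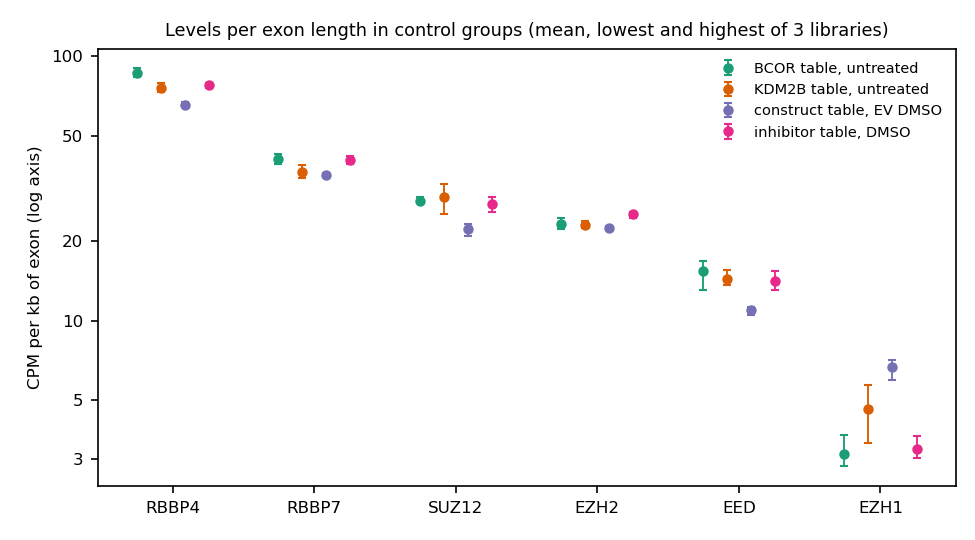
Levels of the 6 PRC2 core genes in control cells, in CPM per kilobase of exon on a log axis; dots are means and bars run from the lowest to the highest of 3 libraries. RBBP4 lies on top at 65.7 to 86.2 and EZH1 at the bottom at 3.14 to 6.67 CPM per kilobase.

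Fold changes come from edgeR's quasi-likelihood test fitted to all genes of a table, with n = 3 libraries per group; SE is the standard error on the log2 scale, and a gene passed with a Benjamini-Hochberg adjusted p under 0.05. Over 35 comparisons and 6 genes, 29 of 210 results passed, 6 of them higher and 23 lower. An unadjusted p under 0.05 was reached by 55, and DESeq2 passed 34. Of all genes, 0% to 47.4% passed by edgeR, depending on the comparison. The members' counts have to be read against these shares, which are given with the comparisons below. EED accounted for 11 of the 29 (1 higher, 10 lower) and SUZ12 for 6 (2 higher, 4 lower). EZH1 passed 4 times (1 higher, 3 lower), RBBP4 4 times (all lower), EZH2 3 times (2 higher, 1 lower) and RBBP7 once (lower). Most of these changes were small: in 2 results alone did a member also pass the absolute log2 fold change of 0.585 that the study's labels name.

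**Figure D2:**
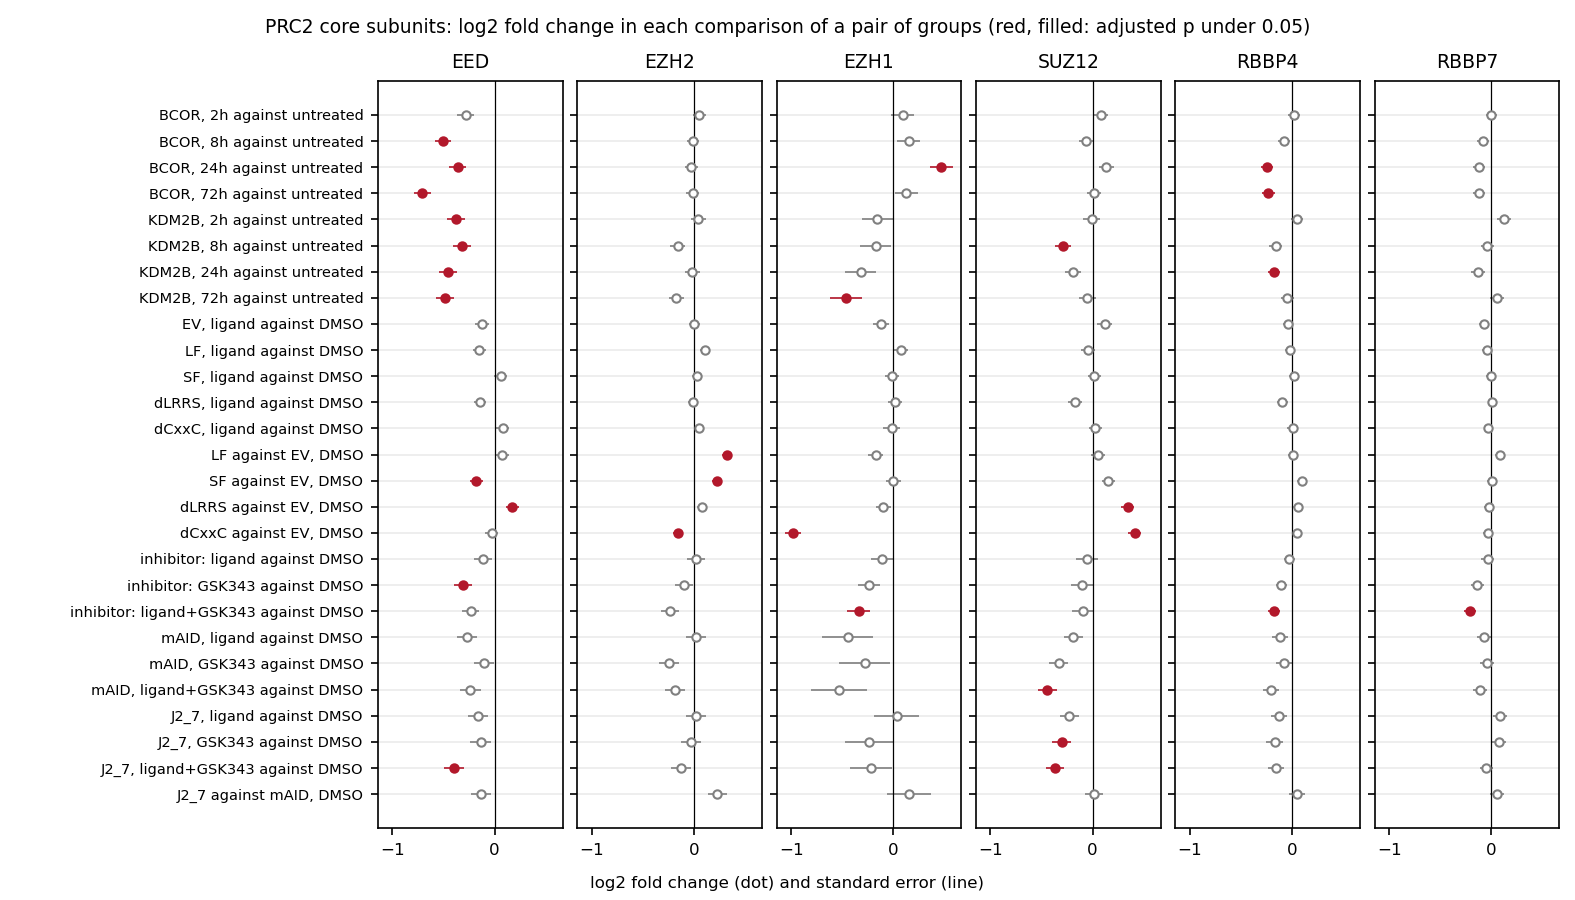
Log2 fold change (dot) and standard error (line) of each PRC2 core gene in the 27 comparisons of a pair of groups, with 3 libraries per group; red filled dots had an adjusted p under 0.05. EED lies left of 0 in 23 of the 27 comparisons, and the dot farthest from 0 is EZH1 in dCxxC against EV cells at -0.98.

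In both time courses EED, the subunit that reads the mark, was the member with the most calls, and every call of it there was lower. It fell at 8, 24 and 72 h in BCOR cells and at 2, 8, 24 and 72 h in KDM2B cells. Among the 6 genes, 0 passed at 2 h in the BCOR table by edgeR (1 at an unadjusted p under 0.05, 1 by DESeq2; 2.83% of all 14110 genes passed), 1 at 8 h (7.83%), 3 at 24 h (14%) and 2 at 72 h (18.9%). In KDM2B cells 1 of the 6 passed at 2 h (6.69% of all 14524 genes), 2 at 8 h (10.7%), 2 at 24 h (33.1%) and 2 at 72 h (25.8%). At 24 and 72 h the share of members that passed in the KDM2B table was thus near that of all genes.

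EED in BCOR cells was at 116, 117 and 91.7 CPM in the untreated libraries. It was at 85.6, 94.6 and 87.4 CPM at 2 h and at 75.2, 80.9 and 72.7 CPM at 8 h. At 24 h it was at 86.6, 84.3 and 81.6 CPM, and at 72 h at 67.1, 64.9 and 66.9 CPM. All 9 libraries from 8 h on lay below the lowest untreated one, while the 2 h libraries overlapped the untreated range through untreated library 3. The level was not ordered by time, since the 24 h libraries all lay above those at 8 h and 72 h. The log2 fold change was -0.28 at 2 h (SE 0.08, adjusted p = 0.0613), -0.50 at 8 h (SE 0.08, adjusted p = 0.000475), -0.36 at 24 h (SE 0.08, adjusted p = 0.00509) and -0.71 at 72 h (SE 0.08, adjusted p = 1.53e-06). At 72 h EED was 1 of 1004 genes, 7.12% of those tested, that also passed the fold minimum. The calls from 8 h on held under each of 11 alternative fits (another normalization, tool, filter, choice of groups or block, or 1 library left out), and without untreated library 3 the change at 2 h was -0.39 (adjusted p = 0.00394); it also passed with no filter (0.0309) and by DESeq2 (0.0435). In bulk RNA, a loss of cells with more EED and less EED RNA per cell cannot be told apart.

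EED in KDM2B cells was at 95.5, 109 and 97.1 CPM untreated. It was at 74.7, 73.3 and 83.8 CPM at 2 h and at 84.3, 84.0 and 73.2 CPM at 8 h. At 24 h it was at 78.3, 74.5 and 67.3 CPM, and at 72 h at 78, 74.5 and 62.9 CPM. All 12 libraries with the ligand lay below the lowest untreated library, and the ranges of the 4 time points overlapped each other. The log2 fold changes were -0.38 at 2 h (SE 0.09, adjusted p = 0.012), -0.32 at 8 h (SE 0.09, adjusted p = 0.0264), -0.45 at 24 h (SE 0.09, adjusted p = 0.000617) and -0.49 at 72 h (SE 0.09, adjusted p = 0.000485). The calls at 24 and 72 h held under each of 10 alternatives. That at 2 h was lost without 2 h library 1 or 2 (adjusted p up to 0.0784), and that at 8 h without untreated library 2 or 8 h library 2 or 3 (up to 0.134).

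**Figure D3:**
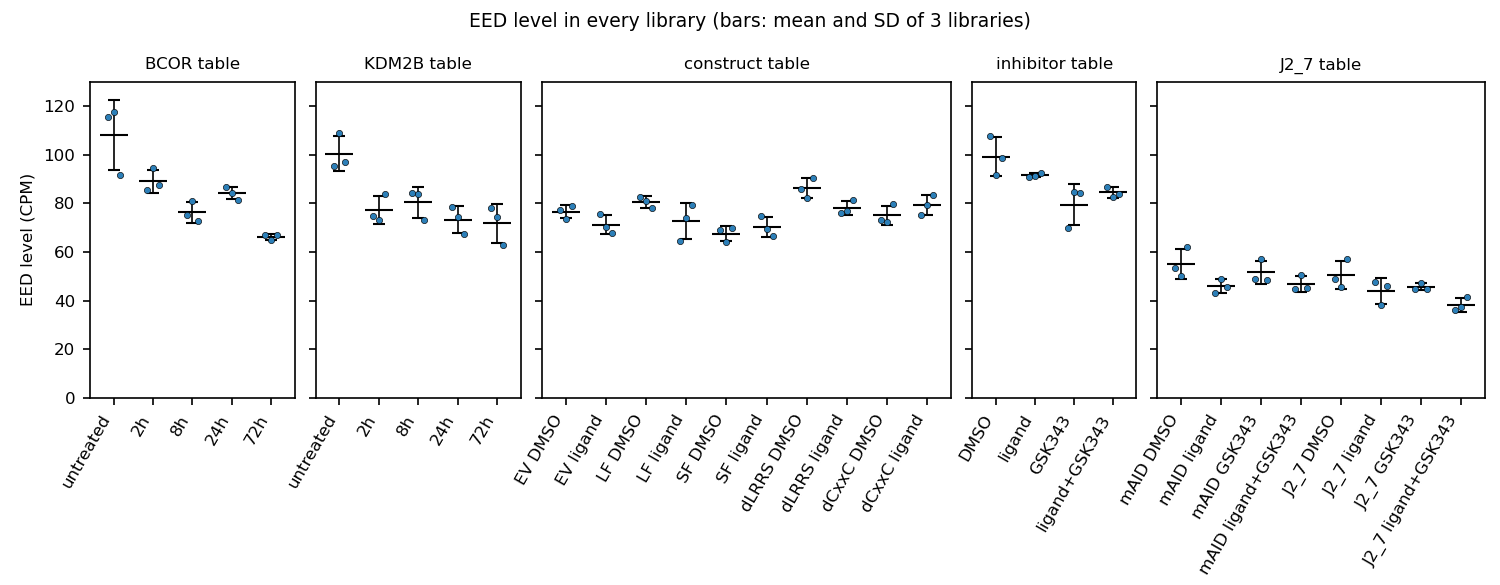
EED level in CPM in each of the 96 libraries, by table and group; dots are libraries, horizontal bars means and vertical bars SD over 3 libraries. Untreated BCOR and KDM2B cells lie at 91.7 to 117 CPM and all libraries at 72 h between 62.9 and 78 CPM; levels of the J2_7 table come from other kinds of counts and are not comparable with the rest.

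Where a DMSO control was used, the ligand alone did not pass for EED in any line. The log2 fold change was -0.13 in EV cells (95% interval -0.26 to 0.01, as 1.96 SE), -0.15 in LF (-0.28 to -0.03), 0.06 in SF (-0.07 to 0.18), -0.14 in dLRRS (-0.27 to -0.02) and 0.08 in dCxxC cells (-0.05 to 0.20). It was -0.11 in the inhibitor table (-0.28 to 0.05), -0.27 in mAID cells (-0.46 to -0.08) and -0.16 in J2_7 cells (-0.36 to 0.03). The interval of mAID cells includes the KDM2B time-course values at 2, 8 and 24 h and not that at 72 h. The interval of J2_7 cells includes the value at 8 h alone, and those of EV, LF, SF, dLRRS and dCxxC cells and of the inhibitor table include none of the 4. The time-course values have a standard error of their own, which this reading leaves out, so that it shows no difference between tables. The length of treatment in these tables is unknown, and the tables were not tested against each other. EED passed between lines, lower in SF than in EV cells (67.5 ± 3.14 against 76.6 ± 2.60 CPM, SD, n = 3; log2 fold change -0.18, adjusted p = 0.02) and higher in dLRRS than in EV cells (86.2 ± 4.09 CPM; 0.17, adjusted p = 0.0222). The first was lost without EV library 1 or 3 or SF library 2 (adjusted p up to 0.181) and with no filter (0.0872), the second without EV library 2 or dLRRS library 3 (up to 0.118).

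The ligand moved no member past the threshold in the construct table. By edgeR 0 of 6 passed in EV (0 at an unadjusted p under 0.05; 11.2% of all 15910 genes passed), LF (2; 0.00629%), SF (0; 0.0629%), dLRRS (2; 8.57%) and dCxxC cells (0; 0.0503%), and DESeq2 passed 0 in each. Tests of whether the ligand effect differed from that in EV cells also passed 0 of 6 members for LF (0 at an unadjusted p under 0.05; 1.70% of genes), SF (0; 1.53%), dLRRS (1; 0.0817%) and dCxxC cells (1; 2.26%), with 0 by DESeq2 in each. The largest was SUZ12 in dLRRS cells at -0.29 (SE 0.10, adjusted p = 0.146; -0.37 and 0.0303 without EV ligand library 2).

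The lines themselves differed. With DMSO, 1 of the 6 members passed in LF against EV cells (42.0% of all genes did), 2 in dLRRS (41.8%), 2 in SF (40%) and 3 in dCxxC cells (47.4%), a large background against which these counts have to be read. EZH1, the less active of the catalytic subunits, had the largest change of any member. It was at 41.7, 49.6 and 48.7 CPM in EV cells and at 25.4, 21.7 and 23.6 CPM in dCxxC cells, with no overlap (-0.98, SE 0.08, adjusted p = 2.95e-14). The call held under all 11 alternatives, between -1.06 and -0.92, and EZH1 was among the 19.2% of genes that also passed the fold minimum. In dCxxC cells with the ligand EZH1 was at 22.8, 22.7 and 24.5 CPM, within the range of those with DMSO. In LF, SF and dLRRS cells it lay between 41.1 and 48.0 CPM with DMSO, and none of these lines passed against EV (-0.17, 0.00 and -0.10; adjusted p 0.0534, 0.997 and 0.28). Without EV library 1 LF cells passed at -0.25 (adjusted p = 0.00951).

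EZH2, the main catalytic subunit in dividing cells, was at 237, 241 and 246 CPM in EV cells with DMSO. In LF cells it was at 296, 306 and 306 CPM and in SF cells at 287, 272 and 289 CPM, all above EV. In dCxxC cells it was at 215, 207 and 227 CPM, all below EV, and in dLRRS cells at 260, 243 and 264 CPM, which overlapped EV. EZH2 rose in LF (0.33, SE 0.05, adjusted p = 4.69e-07) and SF cells (0.23, SE 0.05, adjusted p = 0.000182) and fell in dCxxC cells (-0.16, SE 0.05, adjusted p = 0.00764). The last call was lost without EV library 3 or dCxxC library 2 (adjusted p up to 0.0678). EZH2 counts per EZH1 count were 5.20 ± 0.439 in EV and 9.21 ± 0.630 in dCxxC cells (SD, n = 3), a ratio of counts that is not corrected for length.

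SUZ12, the scaffold, was at 137, 148 and 153 CPM in EV cells with DMSO. It was at 181, 184 and 190 CPM in dLRRS and 195, 191 and 196 CPM in dCxxC cells, all above EV. Both rose (0.34, SE 0.07, adjusted p = 6.25e-05, and 0.41, SE 0.07, adjusted p = 2.74e-06), and both calls held under all 11 alternatives. In SF cells SUZ12 was 0.15 higher (SE 0.07, adjusted p = 0.0586) and passed without EV library 3 or SF library 3 (adjusted p 0.0274 and 0.029), with no filter (0.012), with the compared groups alone (0.011) and without EV ligand library 1 (0.0336). The ligand in dLRRS cells gave -0.17 for SUZ12 (SE 0.07, adjusted p = 0.103), which passed when no filter on low counts was used (adjusted p = 0.0392) or the compared groups alone were fitted (0.0097). In dCxxC cells EZH1 and EZH2 thus fell while SUZ12 rose, and EED, RBBP4 and RBBP7 had values of -0.03, 0.05 and -0.04 (adjusted p 0.753, 0.405 and 0.502).

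**Figure D4:**
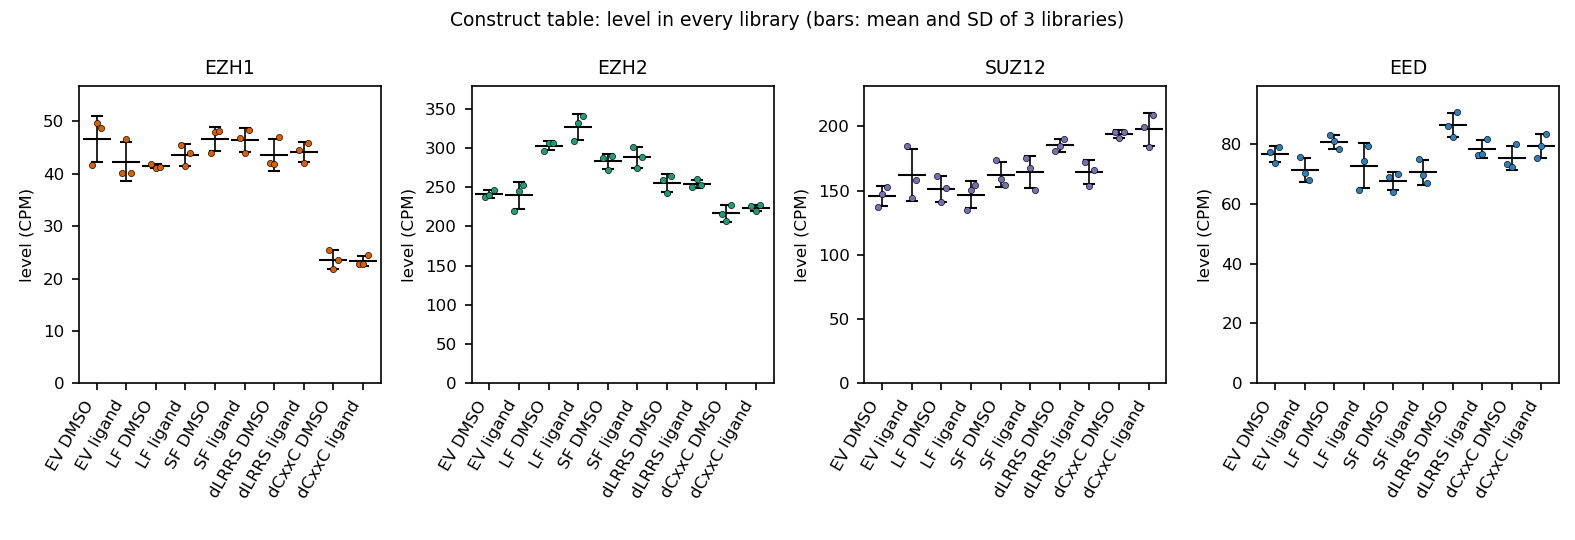
Levels in CPM of EZH1, EZH2, SUZ12 and EED in each library of the construct table; dots are libraries, bars mean and SD of 3. EZH1 in dCxxC cells (21.7 to 25.4 CPM, with or without the ligand) lies apart from the 4 other lines (40.1 to 49.6 CPM).

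In the time courses EZH1 passed in opposite directions, once each. In BCOR cells it was at 19.7, 20.3 and 25.9 CPM untreated and at 29.8, 32.6 and 28.6 CPM at 24 h, with no overlap (0.47, SE 0.11, adjusted p = 0.0073; 0.0502 without 24 h library 2). At 2, 8 and 72 h the values were 0.09, 0.15 and 0.13, with adjusted p of 0.792, 0.458 and 0.452. In KDM2B cells it was at 33.5, 24.0 and 39.9 CPM untreated and at 23.5, 25.7 and 21.5 CPM at 72 h, which overlap (-0.46, SE 0.16, adjusted p = 0.0374). This call was lost without untreated library 1 or 3 or 72 h library 1 or 3 (adjusted p up to 0.19) and with the compared groups alone (0.0567). At 24 h EZH1 was at -0.32 (adjusted p = 0.122) and passed without untreated library 2, at -0.49 (adjusted p = 0.00742), and with no filter (0.0288). The untreated spread of EZH1 in KDM2B cells was the widest in the ID tables for this gene (SD 7.99 CPM). Courses were not tested against each other, because each lies in a table of its own.

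EZH2 did not pass at any of the 8 time points. In BCOR cells its values lay between -0.02 and 0.05, with 95% intervals within -0.14 to 0.17. In KDM2B cells they were 0.04, -0.16, -0.01 and -0.17 at 2, 8, 24 and 72 h (adjusted p 0.834, 0.194, 0.903 and 0.0958). SUZ12 passed once, at 8 h in KDM2B cells, at 160, 164 and 149 CPM against 199, 215 and 165 CPM untreated (-0.29, SE 0.08, adjusted p = 0.0266). That call was lost without untreated library 1 or 2 or any 8 h library (adjusted p up to 0.147) and with the compared groups alone (0.0549). At 24 h SUZ12 was at -0.19 (adjusted p = 0.0738), and passed without untreated library 3 (-0.29, adjusted p = 0.005) or 24 h library 2 (-0.25, 0.0454).

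RBBP4, a histone binder, fell in BCOR cells from 792, 852 and 804 CPM untreated to 682, 672 and 710 CPM at 24 h (-0.25, SE 0.06, adjusted p = 0.00877) and 706, 663 and 718 CPM at 72 h (-0.23, SE 0.06, adjusted p = 0.00973). All 6 of these libraries lay below the untreated ones. The calls were lost without 24 h library 2 (adjusted p = 0.0502) and 72 h library 2 (0.0602). In KDM2B cells RBBP4 fell at 24 h, from 713, 754 and 696 to 643, 659 and 614 CPM (-0.17, SE 0.06, adjusted p = 0.0343), a call lost without untreated library 1 or 2 or 24 h library 1 or 3 (adjusted p up to 0.121), with no filter (0.207) and with the compared groups alone (0.0895). At 8 h RBBP4 was at 648, 647 and 641 CPM, all below the untreated libraries. It did not pass there by edgeR and passed by DESeq2 (-0.17, adjusted p = 0.0207). RBBP7, its close relative, passed at no time point, with values from -0.13 to 0.13.

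GSK343 blocks the catalysis of EZH2 and is not directed at its RNA. In K562 cells of the inhibitor experiment 0 of 6 members passed with the ligand by edgeR (0 at an unadjusted p under 0.05, 0 by DESeq2; 3.93% of all 13374 genes passed), 1 with GSK343 (9.83%) and 3 with ligand and GSK343 (24.9%). All 4 calls were lower. EZH2 itself was at 265, 276 and 278 CPM with DMSO and at 303, 253 and 215 CPM with GSK343, a range that includes all DMSO libraries (-0.10, SE 0.09, adjusted p = 0.526). The high value came from GSK343 library 1, the shallowest of the table at 4268383 counts. Without it EZH2 was at -0.22 (adjusted p = 0.0391), RBBP4 at -0.17 (0.0433), and 7 results of the table passed in place of 4. With ligand and GSK343 EZH2 was at 237, 227 and 233 CPM, all below DMSO (-0.23, SE 0.09, adjusted p = 0.0608; 0.0233 with no filter on low counts, 9.18e-05 with the compared groups alone).

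EED was at 108, 91.5 and 98.6 CPM with DMSO, at 70, 84.5 and 84.1 CPM with GSK343 and at 86.9, 82.7 and 84.1 CPM with ligand and GSK343. Both treated groups lay below every DMSO library. GSK343 alone passed (-0.31, SE 0.09, adjusted p = 0.0311), and was lost without DMSO library 1 or 3 or GSK343 library 1 (adjusted p up to 0.15) and with the compared groups alone (0.158). Ligand and GSK343 did not (-0.23, SE 0.08, adjusted p = 0.0516; 0.019 by DESeq2, 0.0422 with relative log expression factors, 0.00299 with the compared groups alone, 0.0424 without DMSO library 2). EZH1 fell with ligand and GSK343, from 21.1, 25.5 and 21.9 to 17.3, 17.3 and 19.3 CPM (-0.34, SE 0.11, adjusted p = 0.0289), which was lost without DMSO library 2 or combined-treatment library 1 or 2 (up to 0.157) and with no filter (0.0685).

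RBBP4 and RBBP7 fell with ligand and GSK343. RBBP4 was at 750, 718 and 753 CPM with DMSO and 659, 662 and 647 CPM with the combination (-0.17, SE 0.06, adjusted p = 0.0366), RBBP7 at 286, 307 and 299 and 256, 258 and 258 CPM (-0.21, SE 0.06, adjusted p = 0.0163). Groups did not overlap for either gene. The RBBP4 call was lost on leaving out any 1 of the 6 libraries (adjusted p 0.0525 to 0.124) and with no filter (0.0823), that of RBBP7 without DMSO library 2 or any combined-treatment library (up to 0.0718). In the same comparison 11 of 22 replication and S phase genes and 2 of 2 genes of chromatin assembly factor 1 were lower and 0 higher, and 24.9% of all genes passed in either direction; the part of these genes in the result was not tested. The interaction of ligand and GSK343 passed for 0 of 6 members by edgeR (0 at an unadjusted p under 0.05, 0 by DESeq2) and for 0 of all genes (0%).

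In the J2_7 table SUZ12 passed 3 times, and EED, described after it, once. In mAID cells it was at 184, 170 and 175 CPM with DMSO, 157, 155 and 153 with the ligand, 151, 124 and 145 with GSK343 and 113, 121 and 153 CPM with both. Every treated library lay below the lowest DMSO library. The combination passed (-0.44, SE 0.09, adjusted p = 0.000869, held under all 12 alternatives). GSK343 alone was at -0.33 (SE 0.09, adjusted p = 0.0521; 0.0276 by DESeq2, 0.014 with no filter, 0.0416 without the shallow libraries of the table) and the ligand alone at -0.19 (adjusted p = 0.356). In J2_7 cells SUZ12 was at 184, 187 and 162 CPM with DMSO, 163, 152 and 140 with the ligand, 134, 149 and 144 with GSK343 and 135, 144 and 134 CPM with both. It fell with GSK343 (-0.30, SE 0.09, adjusted p = 0.0409) and with both (-0.37, SE 0.09, adjusted p = 0.00407); the ligand alone gave -0.23 (adjusted p = 0.199) and its libraries overlapped DMSO. The combined call held under all 12 alternatives. That with GSK343 alone was lost without J2_7 DMSO library 1 or 2 or GSK343 library 2 or 3 (adjusted p up to 0.174), and under 3 other settings.

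Among the 6 members, mAID cells had 0 passing with the ligand by edgeR (2 at an unadjusted p under 0.05, 0 by DESeq2; 3.46% of all 14649 genes), 0 with GSK343 (2 and 1; 1.55%) and 1 with both (15.5%). J2_7 cells had 0 with the ligand (1 and 0; 3.67%), 1 with GSK343 (8.55%) and 2 with both (15.2%). The second of these was EED, at 48.8, 45.7 and 56.9 CPM with DMSO and 36, 37.3 and 41.6 CPM with both, with no overlap (-0.40, SE 0.10, adjusted p = 0.0041; 0.0532 without DMSO library 3). J2_7 GSK343 library 1 had only 782663 counts, of which 2 fell in EZH1 and 34 in EED. Without the 2 libraries of this table that hold fewer than 3000000 counts, 7 results of the table passed in place of 4, as they did without that library alone.

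The effect of the treatments did not differ detectably between J2_7 and mAID cells for any member. By edgeR 0 of 6 differences passed for the ligand (0.00683% of all genes passed), 0 for GSK343 (0.130%) and 0 for both (0.512%), with 0 at an unadjusted p under 0.05 and 0 by DESeq2 in each. For SUZ12 the differences were -0.04 (95% interval -0.29 to 0.21), 0.03 (-0.22 to 0.29) and 0.08 (-0.17 to 0.33). These intervals reach differences larger than some of the SUZ12 effects themselves, such as those of the ligand alone. Between the lines with DMSO 0 of 6 passed by edgeR (1 at an unadjusted p under 0.05, 0 by DESeq2; 33.2% of all genes passed). SUZ12 differed by 0.01 (95% interval -0.16 to 0.18), and EZH2 was at 155, 145 and 128 CPM in J2_7 against 125, 122 and 118 CPM in mAID cells (0.23, SE 0.10, adjusted p = 0.0627; 0.044 without J2_7 DMSO library 3). EZH1 had 2 to 73 counts per library in this table, and its SE there was 0.21 to 0.35.

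**Figure D5:**
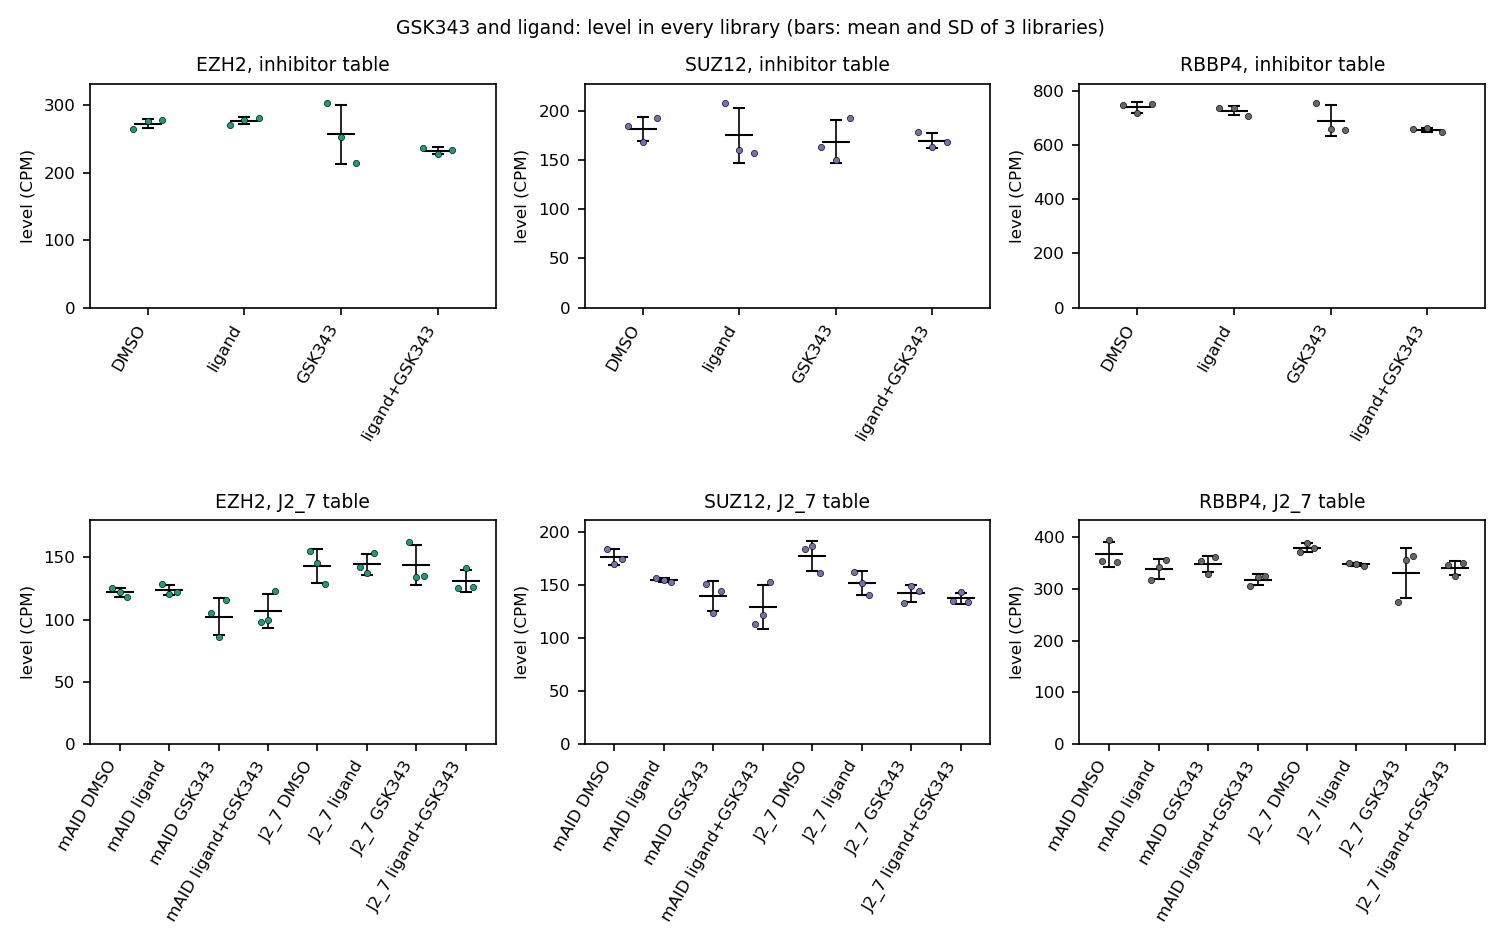
Levels in CPM of EZH2, SUZ12 and RBBP4 in each library of the inhibitor table (top) and the J2_7 table (bottom); dots are libraries, bars mean and SD of 3. SUZ12 with DMSO lies at 162 to 187 CPM in mAID and J2_7 cells and with ligand and GSK343 at 113 to 153 CPM.

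The accessory subunits of PRC2 were counted for the same comparisons, as 7 genes of a list of 8 that passed the filter. In BCOR cells 0 of 7 passed at each time point by edgeR, where EED passed from 8 h on. An unadjusted p under 0.05 was reached by 2, 2, 2 and 1 at 2, 8, 24 and 72 h, and DESeq2 passed 0 at each. Of all genes 2.83% to 18.9% passed at these time points. In KDM2B cells 1 was higher at 2 h, when 6.69% of all genes passed, and 2 were lower at 24 h, when 33.1% did. JARID2 was at 123 ± 4.42 CPM in untreated BCOR cells and 123 ± 3.50 CPM at 72 h, and AEBP2 at 44 ± 1.54 and 42.4 ± 3.66 CPM (SD, n = 3). In dCxxC against EV cells 3 of 7 were higher and 2 lower, against 47.4% of all genes that passed. EPOP, which links PRC2 to elongin, was at 0.38 (SE 0.09, adjusted p = 0.000807), AEBP2 at 0.36 (SE 0.08, adjusted p = 0.000343) and MTF2, which recruits PRC2 to CpG islands, at 0.30 (SE 0.06, adjusted p = 0.000189). JARID2 fell there (-0.24, SE 0.05, adjusted p = 0.000102). With ligand and GSK343 the list had 1 higher in the inhibitor table, where 24.9% of all genes passed and DESeq2 passed 0 of the list. In mAID cells 2 were lower (15.5% of all genes passed), and in J2_7 cells 0 passed (15.2%).

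Of the demethylases that remove the PRC2 mark, KDM6A and KDM6B, 0 of 2 passed at 72 h in BCOR cells by edgeR (1 at an unadjusted p under 0.05, 0 by DESeq2). Both rose at 24 h in KDM2B cells, when 33.1% of all genes passed, KDM6A by 0.27 (SE 0.09, adjusted p = 0.0228) and KDM6B by 0.99 (SE 0.14, adjusted p = 7.6e-05). At 72 h there 1 of 2 was higher and 0 lower, when 25.8% of all genes passed. KDM6A fell in dCxxC cells (-0.29, SE 0.05, adjusted p = 1.27e-05) and in mAID cells with ligand and GSK343 (-0.56, SE 0.13, adjusted p = 0.00251). Of 16 NuRD and Sin3 subunits that share RBBP4 or RBBP7, 2 were lower and 0 higher at 72 h in BCOR cells, when 18.9% of all genes passed. They were MTA2 (-0.24, adjusted p = 0.00886) and GATAD2B (-0.20, adjusted p = 0.0474), and the list median was -0.08. At 24 h in KDM2B cells, where RBBP4 fell, 8 of the 16 were lower and 0 higher, against 33.1% of all genes that passed in either direction. At 72 h there, where RBBP4 did not pass, 6 of the 16 were lower and 0 higher, against 25.8% of all genes. In dCxxC cells 3 of these 16 were higher and 3 lower, against 47.4% of all genes that passed there, led by SAP30 of the Sin3 complex (0.38, adjusted p = 0.00013) and MTA1 of NuRD (-0.29, adjusted p = 0.000382). Of 22 replication and S phase genes 4 were lower and 0 higher at 72 h in BCOR cells, a share near the 18.9% of all genes that passed there. Among them were the helicase subunits MCM3 (-0.31), MCM5 (-0.31) and MCM2 (-0.23, with adjusted p of 0.0425, 0.00252 and 0.0453). Of the 22, 11 were lower and 1 higher at 24 h in KDM2B cells, when 33.1% of all genes passed in either direction. In dCxxC cells, where 47.4% of all genes passed, 4 of the 22 were higher and 9 lower, with E2F1 at -0.52, cyclin gene CCNA2 at 0.46 and CDK1 at 0.41 (adjusted p 8.57e-07, 1.77e-09 and 4.11e-05). Of the large subunits of chromatin assembly factor 1, which holds RBBP4, 0 of 2 passed at 72 h in BCOR cells by edgeR (0 at an unadjusted p under 0.05, 0 by DESeq2). CHAF1A fell at 24 h in KDM2B cells (-0.24, adjusted p = 0.0138), when 33.1% of all genes passed. At 72 h there 1 of 2 was lower and 0 higher (25.8%). CHAF1B fell in dCxxC against EV cells (-0.16, adjusted p = 0.0309). LF, SF and dLRRS cells against EV each also had 1 of 2 lower and 0 higher. Between these lines and EV, 40% to 47.4% of all genes passed. Both genes fell with ligand and GSK343 in the inhibitor table (-0.28 and -0.25, adjusted p 0.0173 and 0.0217), where 24.9% of all genes passed. Of 10 PRC1.1 genes 3 rose at 72 h in BCOR cells, where 18.9% of all genes passed. They were BCOR (1.81), YAF2 (0.42) and BCORL1 (0.28, with adjusted p of 3.8e-13, 0.00498 and 0.0118). In dCxxC cells 6 were higher and 1 lower, against 47.4% of all genes, led by KDM2B (5.46) and BCOR (1.27, with adjusted p of 1.17e-32 and 1.31e-23). The construct table is named for KDM2B mutants, and reads of a construct were not told apart from those of the cells' own KDM2B gene. The median over all genes lay between -0.02 and 0.02 in each of the 35 comparisons, and the part of these lists in the members' changes was not tested.

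The members did not vary alike over the 32 groups. On log2 CPM centred within each table, the SD over group means was 0.0703 for RBBP7 and 0.0789 for RBBP4, 0.129 for SUZ12, 0.149 for EZH2, 0.156 for EED and 0.263 for EZH1, with a median of 0.168 over 11294 genes. Of these genes 0.726% varied less than RBBP7, 2.02% less than RBBP4 and 76.6% less than EZH1. The highest Pearson correlations between members over the 32 groups were 0.65 (EZH2 with RBBP7) and 0.62 (EZH2 with EZH1), and that of EZH2 with EED was -0.07. These are descriptions, since groups of a table share normalization, and low counts add noise to EZH1.

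The genes with the most similar pattern to each member over the 32 groups, among 11294, were found by Pearson correlation. For EZH2 they were RFC4 (0.86), ARIH2 (0.84) and CHTOP (0.82), and for EZH1 DDX11 (0.87), GYPE (0.84) and CLUHP3 (0.83). EED had CXXC1 (0.78), MGME1 (0.74) and TRMT2A (0.73), lower correlations than any other member's. For SUZ12 they were SMCHD1 (0.86), XPO1 (0.85) and ASPM (0.84), for RBBP4 TMEM248 (0.84), SET (0.82) and TOPORS (0.80), and for RBBP7 RFC2 (0.85), EXOSC9 (0.85) and H2AC13 (0.84).

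The coding neighbours of EED on chromosome 11 are PICALM, an endocytosis gene, and HIKESHI, an import factor of heat-shock proteins. Their nearest edges lie 131329 and 23397 bases from the GENCODE span of EED. PICALM fell in BCOR cells at 8 and 72 h (-0.38 and -0.36, adjusted p 0.00363 and 0.00196) and in KDM2B cells at 8 and 72 h (-0.32 and -0.27, adjusted p 0.0347 and 0.0428), and gave 0.01 and -0.17 at 2 and 24 h in BCOR cells (adjusted p 0.984 and 0.154) and -0.13 and -0.15 in KDM2B cells (0.502 and 0.231). HIKESHI fell in BCOR cells at 72 h (-0.28, adjusted p = 0.0362) and in KDM2B cells at 24 h (-0.24, adjusted p = 0.0485). Like EED, PICALM was lower in SF than in EV cells (-0.25, adjusted p = 0.00278), higher in dLRRS (0.16, adjusted p = 0.0477) and lower in J2_7 cells with ligand and GSK343 (-0.41, adjusted p = 0.000125). With GSK343 alone in the inhibitor table, where EED passed, PICALM was at -0.06 (adjusted p = 0.671), and it fell in J2_7 cells with the ligand alone (-0.28, adjusted p = 0.0255), where EED did not pass. Neighbours could also move without the member. UTP6, beside SUZ12, fell in BCOR cells at 8, 24 and 72 h (-0.25, -0.22 and -0.19, adjusted p 0.0124, 0.0225 and 0.0324), where SUZ12 did not pass. These genes were chosen for their position, and a shared cause with the members was not tested.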

How the data were processed

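RNA of 96 K562 libraries in 5 tables was analysed. In 4 tables the authors deposited raw counts per Ensembl gene ID, and 60463 of 60605 IDs matched a gene symbol. In the J2_7 table the authors deposited estimated counts per gene symbol, which were rounded to whole numbers, with spike-in rows left out. Per the labels' protocols RNA was extracted with RNeasy columns and depleted of ribosomal RNA for KAPA HyperPrep libraries. The J2_7 table's labels also name Smart-3SEQ, which reads transcript ends, and the submitters' processing notes name STAR, DESeq2, Trim Galore 0.6.7 and hg38. The strand setting of counting is not given in the sources used here.

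Each table was fitted alone, all its groups together, with edgeR 4.0.16 (TMM factors, filterByExpr, robust quasi-likelihood F test) in R 4.3.3, and p-values were adjusted over all genes tested by Benjamini-Hochberg. Genes passed with an adjusted p under 0.05, with an absolute log2 fold change over 0.585 as a second rule. Standard errors were taken as the size of the log2 fold change over the square root of F. Levels are CPM, counts scaled to the library total after TMM adjustment; likeness used log2 CPM with a prior count of 2. Totals of 782663 to 24545679 counts set the precision, and intervals cover the spread of these libraries only. The code was tested on simulated data with 200 changed genes. Alternatives were DESeq2 1.42.0, relative log expression factors, no filter, the compared groups alone, the fold minimum, a replicate block, leaving out each library, and leaving out libraries under 3000000 counts.

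The members, the lists (accessory subunits, demethylases, NuRD and Sin3 partners, chromatin assembly factor 1, PRC1.1, replication and S phase, cell markers) and the comparisons were chosen with earlier results of these data known. All members are named; list genes are named where a comparison had a member past both rules, with the lists of 2 genes named elsewhere after their values were seen, and the 3 genes most like each member by correlation are named. Libraries of a group differed by more than sampling noise in every pair (chi-square per degree of freedom of 1.66 or more). Columns of per-sample values left unused numbered 0.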

Additional observations from a re-analysis of the deposited data

How the results depend on the processing

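Of the 210 gene and comparison pairs, relative log expression factors lost 1 call and gained 1, DESeq2 lost 0 and gained 5, no filter lost 4 and gained 6, and the compared groups alone lost 5 and gained 5. None of these settings, nor leaving out libraries, reversed a call. With the fold minimum of 0.585 the calls went from 6 to 1 for BCOR, 7 to 0 for KDM2B, 8 to 1 for the constructs, 4 to 0 for the inhibitor experiment and 4 to 0 for J2_7; edgeR alone was run with this rule. Fitting the compared groups alone left 4 calls in the KDM2B table. Without libraries under 3000000 counts the J2_7 table had 7. Leaving out 1 library at a time gave 4 to 7 calls for BCOR, 4 to 8 for KDM2B, 7 to 10 for the constructs, 1 to 7 for the inhibitor experiment and 3 to 7 for J2_7. Among pairs not named with their libraries above, RBBP4 in SF against EV cells passed without SF library 2 (adjusted p = 0.0471) and RBBP7 in LF against EV cells without LF library 3 (0.0483). Deviations of libraries with the same replicate number had a mean correlation of 0.0935 (lowest -0.0705) in the BCOR table. Pairs with different numbers there had a mean of -0.0464, and the ranges overlapped. In the J2_7 table the means were -0.0123 (lowest -0.245) for the same number and 0.00628 for different numbers. Same-number pairs were thus somewhat more alike on average in the BCOR table and not in the J2_7 table. Whether the numbers pair the libraries was not tested. With the replicate block the BCOR table had 7 calls and the J2_7 experiment 3: EED at 2 h in BCOR cells passed (adjusted p = 0.0277) and SUZ12 in J2_7 cells with GSK343 did not (0.0645). No replicate block was fitted for KDM2B, the constructs and the inhibitor experiment. There the columns match single samples only for dLRRS and dCxxC cells, and no label states a pairing of libraries. Depth limits EZH1 most, with 2 to 73 counts per library in the J2_7 table.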
